A study of Mus musculus with 8 samples.

Results

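The genes that make, carry, sense and clear GABA were followed in the cortex of newborn mice lacking the chromatin remodelling subunits BAF155 and BAF170. They were 27 listed genes, each found in the count files through its Ensembl identifier, among 48709 identifiers in all. RNA sequencing covered 4 dcKO_hGFAP-Cre and 4 control cortices at postnatal day 3 (P3), on a C57BL/6J background. The dcKO_hGFAP-Cre mice are BAF155 fl/fl, BAF170 fl/fl and carry hGFAP-Cre, a transgene in which a human GFAP promoter drives the recombinase in progenitors of the dorsal telencephalon, so that these progenitors and the cells descending from them can lose both genes, whereas cells that enter the cortex from elsewhere can keep them. The controls are given in the study's methods as BAF155 fl/+, BAF170 fl/+ with Cre, so that both groups carry floxed alleles and Cre. The labels give them as wild type. Mutants of this line died soon after birth. Nothing in the labels says whether mice were littermates, and p-values measure the spread between these samples.

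GABA is the main inhibitory transmitter of the mature forebrain. It is made from glutamate in interneurons and other GABAergic neurons, loaded into vesicles, and released onto ligand-gated chloride channels (GABA-A receptors) and G protein-coupled receptors (GABA-B receptors). Astrocytes and nerve endings take it up again, and mitochondria break it down. In the newborn cortex many neurons still hold high chloride, because the chloride importer NKCC1 is used before the exporter KCC2 takes over, and GABA-A channels can then depolarize the cell. Cortical interneurons arise in the ventral telencephalon and migrate into the cortex, whereas cortical excitatory neurons arise in the dorsal telencephalon.

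The libraries held 21126713 to 32110285 counts. Levels are given as CPM, library-size normalized counts scaled with edgeR's TMM factors, and 3 counts correspond to 0.0906 to 0.148 CPM. Of the targeted genes, Smarcc1 (BAF155) lay at 144 to 170.5 CPM in control and 73.6 to 86.9 CPM in dcKO_hGFAP-Cre, and Smarcc2 (BAF170) at 469 to 500.3 CPM against 256 to 319 CPM, so transcript remained in every mutant. Cortical identity was present in both groups but lower in the mutants: the summed CPM of 12 cortical excitatory neuron markers was 1848 to 2015 in control and 1081 to 1186 in dcKO_hGFAP-Cre, with 9 called lower (among them Emx1, Neurod6 and Fezf2) and 2 higher (Nrn1 and Neurod1). Markers of striatal projection neurons (14 genes) summed to 136.8 to 202.6 CPM in control and 398.7 to 785.7 CPM in the mutants. Choroid plexus markers reached 631.5 and 1201 CPM in dcKO_hGFAP-Cre replicates 1 and 2, against 12.4 and 26.8 CPM in the other mutants and at most 17.0 CPM in control. Among the other lists, 7 of 8 oligodendrocyte precursor markers were called lower. Of the tested markers, 6 of 11 for thalamus and midbrain and 5 of 8 for cerebellar granule neurons were called higher, with 2 lower in each. Across all genes tested, 18.6% were called higher and 18.9% lower. The summed CPM of the 16 thalamus and midbrain markers did not rise, at 202.8 to 247.5 in control and 163.3 to 209.9 in the mutants. The mitochondrial share of counts was 2.06% to 3.23% in control and 3.57% to 5.47% in dcKO_hGFAP-Cre.

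Of the 27 genes, 23 passed edgeR's filter on low counts and 4 did not. Among the 23, 10 were called higher and 7 lower in dcKO_hGFAP-Cre by the quasi-likelihood test of edgeR, with Benjamini-Hochberg adjusted p-values below 0.05 over all 16525 genes, and 6 were not called. The count includes Gabre, which passed the filter through the mutants alone. Across all genes tested, 37.5% were called, 18.6% higher and 18.9% lower. Without mutant replicates 1 and 2, a comparison chosen after seeing their choroid plexus transcripts, 6 were called higher and 3 lower, and Slc12a2, Gabra2, Gabra3, Gabra5, Gabrb1, Gabrg3, Gabre and Nlgn2 lost the call. The median log2 fold change was 0.23 over the 23 genes and 0.02 over all genes tested. The 4 control and 4 mutant values did not overlap for 14 of the 23 genes, against 34.4% of all genes. The genes did not move in one direction: the synthesis genes and most called GABA-A subunits were higher, whereas the astrocytic transporter, both GABA-B subunits and the adhesion protein of the inhibitory synapse were lower. In bulk tissue, fewer cells of a type and less RNA per cell cannot be told apart.

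**Figure D1:**
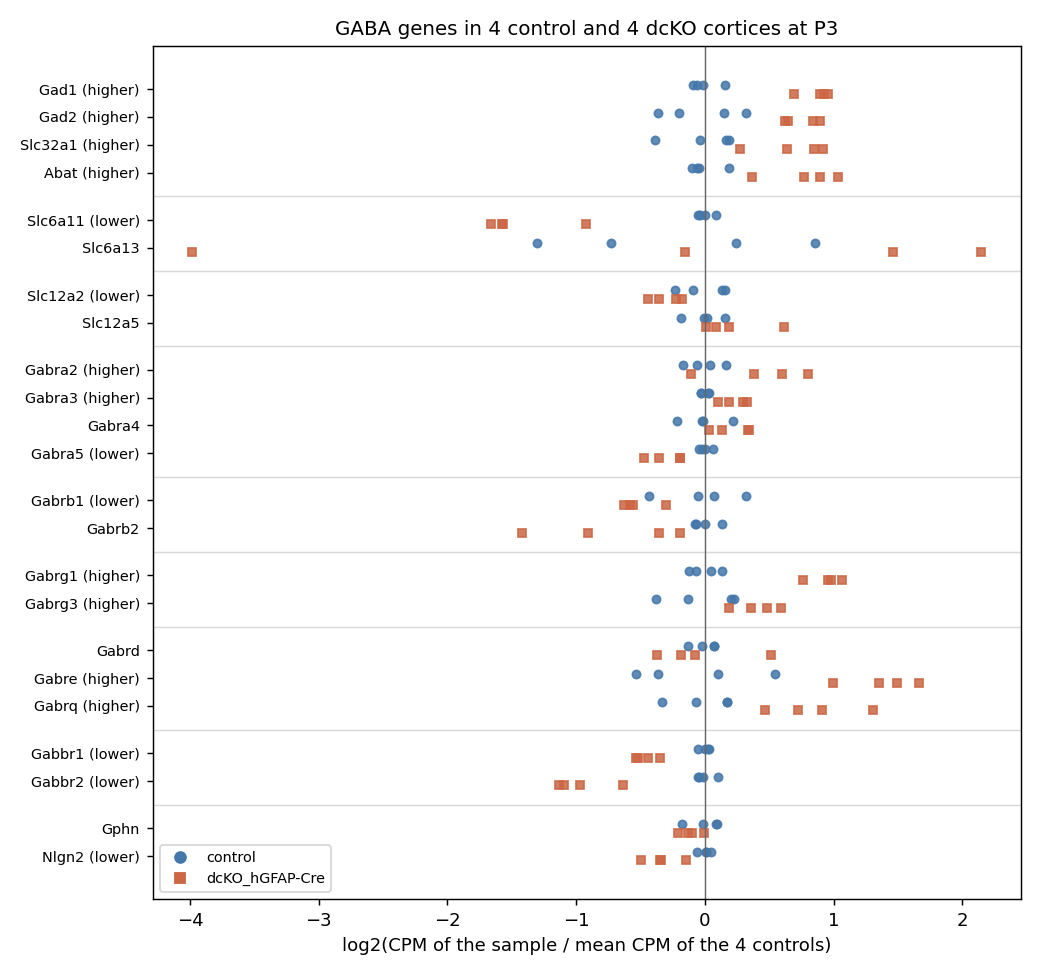
The log2 ratio of each sample's CPM to the mean CPM of the 4 controls, for the 23 GABA genes tested, in rows grouped by role. Circles are control samples and squares dcKO_hGFAP-Cre samples, and the words lower and higher mark the 7 and 10 genes called by edgeR. The mutant squares of Gad1, Gabrg1 and Slc6a11 stand clear of the control circles, and those of Slc6a13 spread on both sides.

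Transcripts for GABA synthesis, vesicular loading and breakdown rose together: all 4 genes were called higher, and in each the lowest mutant lay above the highest control. Across all genes tested, 18.6% were called higher, and the groups did not overlap, in either direction, for 34.4%. Gad1 (ENSMUSG00000070880, GRCm38 chr2:70553072-70602014), the glutamate decarboxylase that makes most GABA of the cell body, measured 90.9, 105.6, 93.8 and 88.7 CPM in control replicates 1 to 4 and 176, 179.6, 153 and 184 CPM in dcKO_hGFAP-Cre replicates 1 to 4. All mutants were far above the controls, and the rise was 83.0% (log2 fold change 0.87, SE 0.09, adjusted p = 1.44e-05 from edgeR). Gad2 (ENSMUSG00000026787, chr2:22622205-22693874), the decarboxylase concentrated in nerve endings, measured 64.3, 72.1, 50.3 and 45.1 CPM against 108, 90.6, 104 and 89.1 CPM. The gap to the nearest control was narrower than for Gad1, and the log2 fold change was 0.76 (SE 0.14, adjusted p = 0.00126 from edgeR). The ratio of Gad1 to Gad2 within a sample lay between 1.41 and 1.97 in control and between 1.48 and 2.07 in dcKO_hGFAP-Cre and was not shown to differ (log2 difference 0.10, exact two-sided permutation p = 0.514). That difference took another sign by lane, with 0.32, -0.33 and 0.07 within lanes 5, 6 and 7. Lane 5 held replicates 1 and 2 of both groups, lane 6 replicate 3 and lane 7 replicate 4, so lanes 6 and 7 compare single libraries.

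Slc32a1, the vesicular transporter that loads GABA and glycine, measured 27.4, 34.9, 40.2 and 40.8 CPM in control and 64.4, 43.3, 67.7 and 55.8 CPM in dcKO_hGFAP-Cre. Replicate 2 was the mutant nearest to the controls, and the log2 fold change was 0.69 (SE 0.15, adjusted p = 0.00475 from edgeR). Since 24.9% of its exon length is shared with the antisense gene Gm14205 and the strand setting of the counting is not given in the sources used here, reads of both cannot be told apart. Abat, the mitochondrial transaminase that starts GABA breakdown, measured 94.7, 116, 98.5 and 97.5 CPM against 188, 131, 208 and 173 CPM. It rose with the synthesis genes, again least in replicate 2, by 0.79 on the log2 scale (SE 0.13, adjusted p = 5.49e-04 from edgeR).

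The summed markers of interneurons and of striatal projection neurons were also higher in the mutants than in control. Of 19 forebrain interneuron markers, 11 were called higher, led by Calb2 (log2 fold change 1.55), Sp9 (1.31) and Dlx6 (1.23), and 2 lower, Npas1 (-0.71) and Elfn1 (-0.42), and their summed CPM was 857 to 906 in control and 1142 to 1352 in the mutants. Of the 14 striatal markers 10 were called higher and none lower, with Isl1 (3.43), Ppp1r1b (2.92) and Ido1 (2.65) the largest. Across all genes tested, 18.6% were called higher and 18.9% lower. The part of these neurons in the result was not tested. In dcKO_hGFAP-Cre replicates 1 to 4, the interneuron sum was 1258, 1352, 1142 and 1256 CPM. The striatal sum was 730.1, 398.7, 785.7 and 508.0 CPM. Gad1 measured 176, 179.6, 153 and 184 CPM in the same order, and Gad2 108, 90.6, 104 and 89.1 CPM. Slc32a1 and Abat were lowest in replicate 2 and highest in replicate 3.

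**Figure D2:**
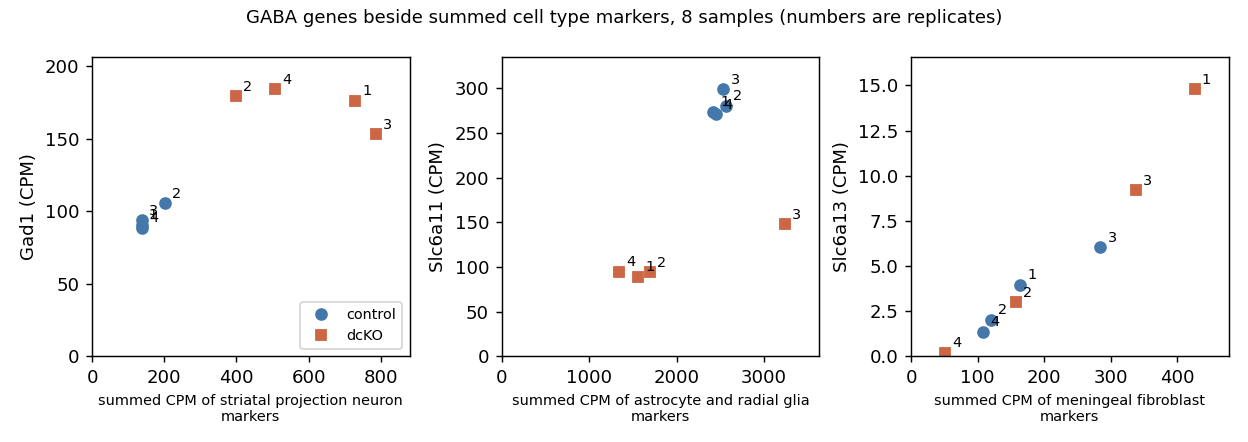
Each panel plots the CPM of a GABA gene against the summed CPM of a marker list in the 8 samples, with replicate numbers beside the points. Gad1 is set against 14 striatal projection neuron markers, Slc6a11 against 10 astrocyte and radial glia markers, and Slc6a13 against 10 meningeal fibroblast markers. In dcKO_hGFAP-Cre replicate 3 Slc6a11 is at 148 CPM, the highest of the mutants, and the astrocyte sum is the highest of all samples. Slc6a13 follows the order of the meningeal sum.

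Of the 2 plasma membrane GABA transporters listed, the transcript of Slc6a11 fell and Slc6a13 was not called. Slc6a11 (ENSMUSG00000030307, chr6:114131241-114249952), the plasma membrane GABA transporter of astrocytes, had the largest fall of the 23 genes tested. It measured 274, 281, 299 and 271 CPM in control and 89.0, 94.2, 148 and 94.8 CPM in dcKO_hGFAP-Cre, so no mutant came near a control. Expression fell by 62.1% (log2 fold change -1.40, SE 0.15, adjusted p = 3.82e-05 from edgeR). The astrocyte and radial glia list summed to 2415 to 2566 CPM in control and to 1562, 1696, 3238 and 1341 CPM in mutant replicates 1 to 4. Replicate 3 had the highest sum of all 8 samples, with Gfap at 273 CPM, and the highest Slc6a11 level of the mutants, 148 CPM against 271 CPM in the lowest control. The part of these cells in the fall of Slc6a11 was not tested. Within that list 2 markers were called lower (Sparcl1 and Slc4a4) and 1 higher (Hopx) of 10 tested. These are 3 called of 10, against 37.5% of all genes tested, so the list was not called more often than other genes.

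Slc6a13, a GABA transporter known from the meninges and from liver and kidney, was low and scattered. Control values were 3.96, 2.02, 6.04 and 1.35 CPM and mutant values 14.8, 3.01, 9.21 and 0.211 CPM, a range that covers the controls on both sides. The log2 fold change of 1.0 had an SE of 1.05 (adjusted p = 0.49 from edgeR), and it was -0.045 with limma-voom. The 8 samples stood in the same order by Slc6a13 as by the summed CPM of 10 meningeal fibroblast markers, which was 107.8 to 284.4 in control and 426, 157.5, 338 and 51.0 in mutant replicates 1 to 4. None of these 10 markers was called in either direction by edgeR.

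The chloride transporters set the direction of current through GABA-A channels. Slc12a2, which encodes the importer NKCC1, measured 70.8, 69.6, 59.4 and 53.8 CPM in control and 56.2, 49.6, 46.7 and 54.4 CPM in dcKO_hGFAP-Cre. The groups overlapped at control replicate 4, and the call (log2 fold change -0.29, SE 0.10, adjusted p = 0.0411 from edgeR) was lost when any library other than control replicate 4 was left out (adjusted p 0.0529 to 0.112) and with library totals as the scaling (-0.17, adjusted p = 0.227). Slc12a5, which encodes the exporter KCC2 of neurons, measured 152, 174, 191 and 171 CPM against 196, 173, 183 and 264 CPM. Only mutant replicates 1 and 4 exceeded all controls, and the gene was not called (log2 fold change 0.25, SE 0.13, adjusted p = 0.141 from edgeR), although it passed with library totals (0.37, adjusted p = 0.0299).

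A ratio within a sample does not depend on scaling. Slc12a5 to Slc12a2 was 2.14, 2.50, 3.22 and 3.17 in control and 3.48, 3.48, 3.91 and 4.85 in dcKO_hGFAP-Cre. Every mutant ratio exceeded every control ratio, with a log2 difference of 0.52 (exact two-sided permutation p = 0.0286, the smallest that 4 against 4 samples allow). It was 0.59, 0.28 and 0.61 within lanes 5, 6 and 7. The difference is one of transcripts in the whole tissue, where choroid plexus and glial cells also express Slc12a2. The choroid plexus sums above were high in the mutant replicates 1 and 2, whose ratios were the lowest of the mutants. In those replicates Slc12a2 was at 56.2 and 49.6 CPM and Slc12a5 at 196 and 173 CPM. In mutant replicates 3 and 4 Slc12a2 was at 46.7 and 54.4 CPM and Slc12a5 at 183 and 264 CPM. The part of choroid plexus and glial cells in the ratio was not tested.

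**Figure D3:**
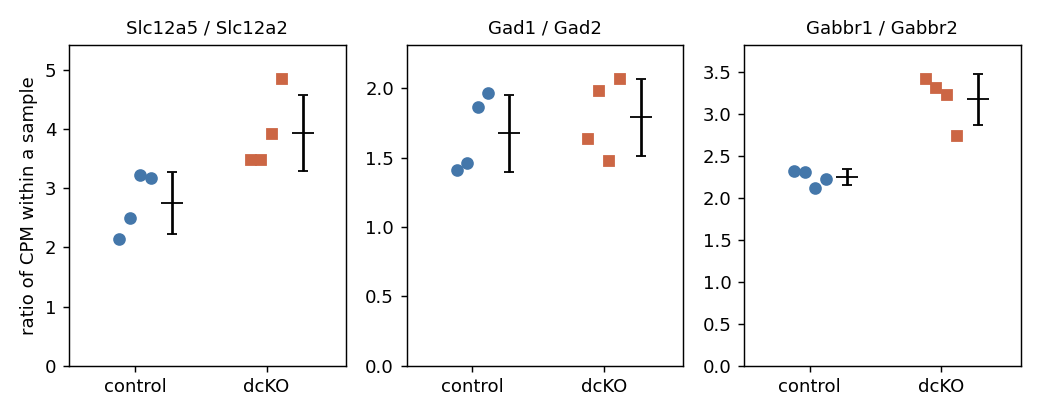
Ratios of CPM within each sample for Slc12a5 to Slc12a2, Gad1 to Gad2 and Gabbr1 to Gabbr2. Circles are the 4 control and squares the 4 dcKO_hGFAP-Cre samples, with the mean and SD beside them in black. The first and the last ratio do not overlap between groups, whereas Gad1 to Gad2 does.

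GABA-A receptors are pentamers, most often built of alpha, beta and gamma subunits. The list held 15 subunit genes, of which 11 were tested, 6 were called higher (scarce Gabre among them) and 2 lower. Of those tested, 72.7% were called, against 37.5% of all genes tested. That share includes Gabre, which passed the filter through the mutants alone. Gabrg1 (ENSMUSG00000001260, chr5:70751047-70842617), a gamma subunit of restricted regional expression, changed most clearly. It measured 21.4, 24.8, 23.3 and 20.6 CPM in control and 43.7, 47.2, 38.1 and 44.5 CPM in dcKO_hGFAP-Cre. All 4 mutants were well above the controls (log2 fold change 0.95, SE 0.10, adjusted p = 2.23e-05 from edgeR). Gabrg3, another gamma subunit, measured 38.4, 39.0, 30.4 and 25.7 CPM against 46.6, 42.8, 38 and 50.2 CPM. Its groups overlapped at mutant replicate 3, and the call (0.41, SE 0.14, adjusted p = 0.0306 from edgeR) was lost without control replicate 3 or 4 or without mutant replicate 1, 2 or 4 (adjusted p 0.0689 to 0.0967).

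The alpha subunits, which set the pharmacology and the place of the receptor, split. Gabra5, the alpha subunit of extrasynaptic receptors in hippocampus and deep cortex, measured 151, 159.8, 149 and 154 CPM in control and 134, 110.4, 134 and 119.7 CPM in dcKO_hGFAP-Cre. It fell in all mutants (log2 fold change -0.30, SE 0.08, adjusted p = 0.0113 from edgeR), and lost the call with library totals (-0.18, adjusted p = 0.0994). Gabra3, the alpha subunit typical of immature cortex, measured 127.5, 134, 128 and 133 CPM against 149, 159.8, 140.0 and 164 CPM. The groups did not overlap, and the rise was small (0.23, SE 0.07, adjusted p = 0.0257 from edgeR). It lost the call without control replicate 1, 3 or 4 or without mutant replicate 1 or 2 (adjusted p 0.0547 to 0.0832).

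Gabra2, an early alpha subunit that is also abundant in the striatum, measured 65.9, 77.1, 70.8 and 61.2 CPM in control and 119.9, 89.7, 63.9 and 104 CPM in dcKO_hGFAP-Cre. Mutant replicate 3 lay within the controls and the other mutants above them (log2 fold change 0.46, SE 0.16, adjusted p = 0.0469 from edgeR). Leaving out any library other than mutant replicate 3 ended the call (adjusted p 0.0601 to 0.141). Gabra4, which forms extrasynaptic receptors with the delta subunit in thalamus and dentate gyrus, lay at 27.6 to 37.2 CPM in control and 32.6 to 40.6 CPM in the mutants and was not called (0.22, SE 0.11, adjusted p = 0.142 from edgeR), although it passed with library totals (0.34, adjusted p = 0.0223).

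The beta subunits were lower where they were called. Gabrb1 measured 73.7, 87.9, 67.7 and 52.0 CPM in control and 45.4, 46.9, 47.8 and 57.1 CPM in dcKO_hGFAP-Cre. The groups crossed in lane 7, where mutant replicate 4 exceeded control replicate 4, and the log2 fold change was -0.51 (SE 0.14, adjusted p = 0.0135 from edgeR). Gabrb2, the beta subunit that dominates in the adult, measured 80.5, 92.6, 84.4 and 79.9 CPM against 66.1, 31.5, 44.9 and 73.7 CPM. No mutant reached a control, yet the mutants differed so much among themselves that the gene was not called (-0.64, SE 0.23, adjusted p = 0.0601 from edgeR). It was called with DESeq2 (adjusted p = 0.00631) and with limma-voom (adjusted p = 0.0396). It was also called by edgeR without mutant replicate 2 (-0.46, adjusted p = 0.0412) or without mutant replicate 4 (-0.82, adjusted p = 0.0192). On simulated counts DESeq2 made 16.6% false calls against 7.45% for the main test. Those counts were drawn with edgeR's own dispersions and with 200 genes changed, so they cannot weigh the DESeq2 call.

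The minor subunits were scarce. Gabrq, the theta subunit of hypothalamic and monoaminergic neurons, measured 2.67, 2.66, 2.26 and 1.87 CPM in control and 4.45, 3.90, 3.27 and 5.86 CPM in dcKO_hGFAP-Cre (log2 fold change 0.89, SE 0.21, adjusted p = 0.00582 from edgeR). Gabre, the epsilon subunit, had 22 counts over the 4 controls and 62 over the 4 mutants, at 0.148 to 0.312 CPM against 0.427 to 0.678 CPM. It was called higher (1.36, SE 0.34, adjusted p = 0.00841 from edgeR), but no control had 10 counts, so the filter passed it through the mutants alone. Gabrd, the delta subunit of tonic inhibition, was flat in its group means, at 8.26 ± 0.54 CPM in control and 8.31 ± 2.38 CPM in dcKO_hGFAP-Cre (SD, n = 4; adjusted p = 0.963 from edgeR), with mutant replicate 3 at 11.8 CPM and the others at 6.40 to 7.82 CPM.

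Some subunits were at or near the detection limit in this tissue. Gabra6, the alpha subunit of cerebellar granule neurons, had no count in any of the 8 libraries. Of 9 markers of those neurons, 8 were tested, 5 were called higher (Neurod1, Fat2, Pax6, Zic1 and Zic2, chosen for naming after their values were seen) and 2 lower, with a summed CPM of 138.0 to 171 in control and 164 to 216 in dcKO_hGFAP-Cre. Barhl1, a defining marker, was not tested, at 0.0664 to 0.184 CPM and 0.0855 to 0.297 CPM. Gabrp, the pi subunit, had 1 count in each group. The rho subunits known from retina had 26 counts in control and 15 in dcKO_hGFAP-Cre (Gabrr1) and 8 and 10 counts (Gabrr2). These 4 genes were not tested.

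**Figure D4:**
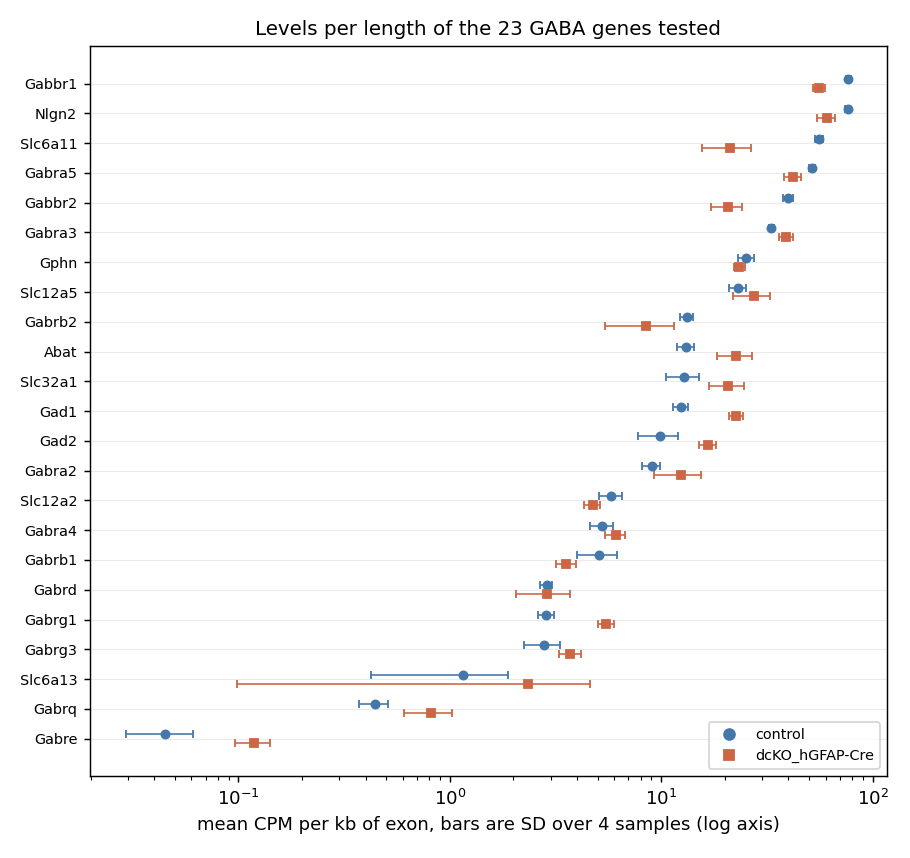
Mean CPM per kb of exon of the 23 GABA genes tested, on a log axis, in the order of the control level, with bars for the SD over 4 samples. Circles are control and squares dcKO_hGFAP-Cre. Slc6a11 and Gabbr2 move down among the other genes and Gad1 and Gabrg1 move up.

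Levels of different genes can be compared only per length. Per kb of all annotated exons, the most abundant GABA genes in control were Gabbr1 (76.8 ± 1.88 CPM per kb, SD, n = 4) and Nlgn2 (76.1 ± 2.21), which did not differ beyond their spread, followed by Slc6a11 (55.7 ± 2.50), Gabra5 (51.5 ± 1.62) and Gabbr2 (39.9 ± 2.04). In dcKO_hGFAP-Cre the order was Nlgn2 (60.6 ± 6.11), Gabbr1 (55.9 ± 3.39), Gabra5 (41.9 ± 3.88) and Gabra3 (39.1 ± 2.77), in which neither Nlgn2 and Gabbr1 nor Gabra5 and Gabra3 differed beyond their spread. Slc6a11 moved from rank 3 to rank 9 of the 27 genes (21.1 ± 5.51), among Gad1 (22.7 ± 1.80), Abat (22.6 ± 4.22) and Slc32a1 (20.7 ± 3.89), from which it did not differ beyond the spread. In control those 3 genes had been at 12.4 to 13.1 CPM per kb. Gabra5 and Gabra3 were the most abundant of the 15 GABA-A subunit genes listed, at 51.5 and 33.2 CPM per kb in control.

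GABA-B receptors need both of their subunits: Gabbr1 binds GABA, and Gabbr2 carries the complex to the surface and couples it to G proteins. Both genes fell. Gabbr1 (ENSMUSG00000024462, chr17:37045966-37075067) measured 596, 608, 605 and 576 CPM in control and 415, 413, 439.5 and 469 CPM in dcKO_hGFAP-Cre. Every mutant was below every control (log2 fold change -0.46, SE 0.07, adjusted p = 2.82e-04 from edgeR). Gabbr2 (ENSMUSG00000039809, chr4:46662305-46991873) measured 257, 264, 286 and 259 CPM against 122, 125, 136 and 172 CPM. The fall was 48.0%, again in every mutant and least in replicate 4 (-0.94, SE 0.11, adjusted p = 4.07e-05 from edgeR).

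Gabbr2 thus fell further than Gabbr1. The ratio of Gabbr1 to Gabbr2 was 2.32, 2.31, 2.11 and 2.23 in control and 3.41, 3.31, 3.23 and 2.73 in dcKO_hGFAP-Cre, without overlap (log2 difference 0.50, exact two-sided permutation p = 0.0286, the smallest possible). Within lanes 5, 6 and 7 the difference was 0.54, 0.61 and 0.30. Of 13 GABA-B partners, 8 were called lower and 1 higher, so 69.2% were called against 37.5% of all genes tested. Their median log2 fold change was -0.40. Among the auxiliary subunits that tune the receptor, Kctd16 fell (-1.13) and Kctd8 rose (1.23), and of the potassium channels that the receptor opens, Kcnj6 (-0.99) and Kcnj9 (-0.80) fell. The cortical excitatory neuron markers that were lower in the same libraries are given above, and their part in these falls was not tested.

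At the inhibitory postsynapse, Nlgn2, the neuroligin that binds presynaptic neurexins there, measured 454, 423, 442 and 442 CPM in control and 348, 346, 312 and 398 CPM in dcKO_hGFAP-Cre. All mutants were below all controls (log2 fold change -0.33, SE 0.08, adjusted p = 0.00665 from edgeR). Gphn, which encodes the scaffold gephyrin that anchors the receptors, lay at 83.9 to 101 CPM and 82.0 to 94.6 CPM and was not called (-0.11, SE 0.08, adjusted p = 0.310 from edgeR), with a sign that changed to 0.012 under library totals. Of 22 genes of receptor trafficking and the inhibitory postsynapse, 10 were called lower and 1 higher, so 50.0% were called against 37.5% of all genes tested. The falls were led by Mdga1 (-1.48), Trak2 (-0.69) and Mdga2 (-0.65). The MDGA proteins bind neuroligins and keep neurexins from them, and Trak2 is a motor adaptor. Hap1, which links receptor vesicles to kinesin, rose from 46.7 ± 8.12 to 159.7 ± 40.8 CPM (SD, n = 4; log2 fold change 1.77, adjusted p = 1.45e-04 from edgeR).

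The other genes of the pathway were taken from 4 lists. Of 62 genes, 60 were tested, 25 were called lower, 3 higher and 32 not called, so 46.7% were called against 37.5% of all genes, with a median log2 fold change of -0.22 against 0.02 over all genes. In GABA and glutamine metabolism (10 genes tested), Slc38a3, the astrocytic exporter of glutamine, fell (-1.33, SE 0.33, adjusted p = 0.0160 from edgeR). It measured 89.7, 86.4, 94.2 and 94.3 CPM in control and 32.2, 28.4, 64.2 and 20.6 CPM in dcKO_hGFAP-Cre, highest in replicate 3 as Slc6a11 was. The taurine transporter Slc6a6 (-0.42) was also lower, and Aldh9a1, a dehydrogenase that can yield GABA from putrescine, was higher (0.35). Among relatives and regulators of the chloride transporters, 5 of 15 tested were called lower and none higher, 33.3% against 37.5% of all genes. They were the cotransporters Slc12a4 (-0.80) and Slc12a7 (-0.74), the carbonic anhydrase Car7 (-0.77), and the kinases Wnk2 (-0.49) and Stk39 (-0.46), which regulate both NKCC1 and KCC2. The 2 kinases fall outside the naming rule and were named after their values were seen.

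**Figure D5:**
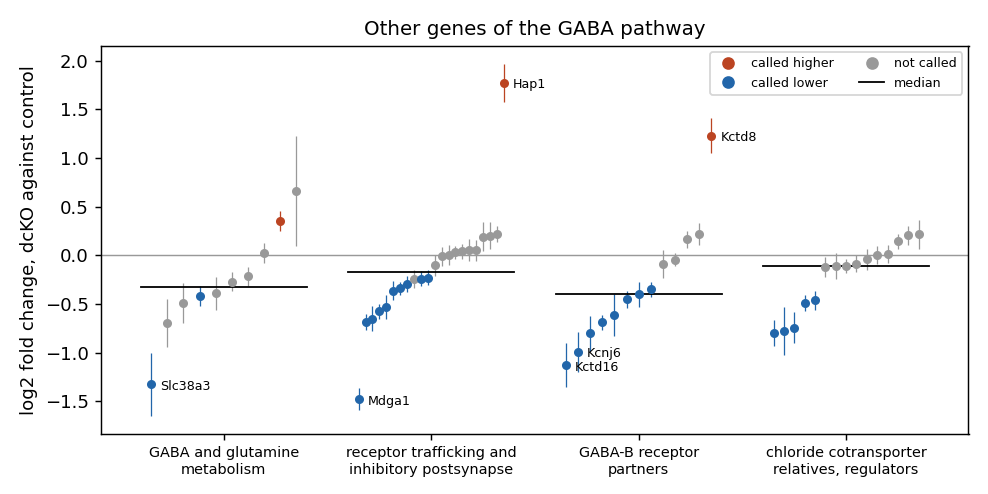
The log2 fold change of dcKO_hGFAP-Cre against control for 60 other genes of the GABA pathway in 4 lists, with SE as bars and the median of each list as a black line. Called genes are coloured, 25 lower and 3 higher. Hap1, Kctd8 and Aldh9a1 are the 3 above zero.

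Several subunit genes lie in clusters, and neighbours did not always move together. On chromosome 5, Gabrg1 lies 115 kb from Gabra2, and both were called higher, whereas Gabrb1, at the other end of the cluster, was called lower. Gabra4 and Gabrb1 stand head to head, overlapping by 196 bases at their 5′ ends, with log2 fold changes of 0.22 (not called) and -0.51. On chromosome 7, Gabrg3 and Gabra5 are 20.5 kb apart, and the first was higher (0.41) and the second lower (-0.30). On chromosome X, Gabre, Gabra3 and Gabrq follow each other at 158 and 168 kb. Gabra3 (0.23) and Gabrq (0.89) were called higher, and so was Gabre (1.36), whose 22 control counts left it below the filter in that group.

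Promoters are shown for 4 of the 5 genes whose call held in every alternative, 2 that rose (Gad1, Gabrg1) and 2 that fell (Slc6a11, Gabbr1). They were picked for their differing base composition, so they do not show how composition goes with direction. The sequences are RefSeq's for GRCm38.p6, upstream of the start RefSeq annotates, read 5′ to 3′ on the gene's strand. For Gad1 that start lies inside the GENCODE gene span given above, downstream of its first base. Capitals mark TAATTA, the core bound by many homeodomain proteins, and GGGCGG or its complement, the GC box bound by SP factors.
Gad1, chr2:70561879-70562041, plus strand: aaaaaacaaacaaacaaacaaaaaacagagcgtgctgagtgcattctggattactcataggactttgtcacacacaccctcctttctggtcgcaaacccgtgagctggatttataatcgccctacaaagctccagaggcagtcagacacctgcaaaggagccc
Gabrg1, chr5:70842618-70842867, minus strand: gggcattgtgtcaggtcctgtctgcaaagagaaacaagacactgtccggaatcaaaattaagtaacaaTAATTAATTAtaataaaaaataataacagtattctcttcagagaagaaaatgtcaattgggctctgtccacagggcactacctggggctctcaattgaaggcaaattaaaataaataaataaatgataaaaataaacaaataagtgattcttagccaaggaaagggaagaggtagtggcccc
Slc6a11, chr6:114130991-114131240, plus strand: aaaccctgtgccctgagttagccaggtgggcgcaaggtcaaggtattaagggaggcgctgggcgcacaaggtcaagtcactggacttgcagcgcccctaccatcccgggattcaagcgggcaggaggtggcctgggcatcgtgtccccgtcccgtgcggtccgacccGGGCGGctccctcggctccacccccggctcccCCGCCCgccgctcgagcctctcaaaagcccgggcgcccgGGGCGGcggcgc
Gabbr1, chr17:37045716-37045965, plus strand: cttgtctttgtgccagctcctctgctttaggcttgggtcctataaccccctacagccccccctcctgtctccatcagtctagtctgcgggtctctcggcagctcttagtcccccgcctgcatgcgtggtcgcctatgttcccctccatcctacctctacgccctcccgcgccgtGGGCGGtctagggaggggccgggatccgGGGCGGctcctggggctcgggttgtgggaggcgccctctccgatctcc

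In the 250 bases upstream of the start, searched on both strands, GC content was 35.6% for Gabrg1, 58.0% for Gad1, 66.0% for Gabbr1 and 71.2% for Slc6a11, and 80.8% for Gabbr2, the fifth such gene. For Gad1 the bases nearer the start lie in an annotated exon and are not printed. Of the 27 genes, 24 had a RefSeq promoter, with 31 promoters in all. TAATTA occurred in 1 of the 31, that of Gabrg1, where 2 matches overlap, and in 4.84% of all 32851 promoters. GGGCGG occurred in 15 of the 31, among them Slc6a11 with 3 matches and Gabbr1 with 2, and in 32.7% of all promoters. The Gad1 window holds 1 match too, in the bases not printed. The E-box CAGCTG occurred in 3 of the 31 (Slc6a13, Gabrp and Nlgn2) and in 13.0% of all. Letters of a motif in a promoter describe the sequence only.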

How the data were processed

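Total RNA of 4 dcKO_hGFAP-Cre and 4 control P3 cortices was sequenced from TruSeq libraries. The authors aligned reads to mm10, counted them with featureCounts and deposited raw counts per Ensembl gene; the aligner, annotation and strand setting are not given in the sources used here. Of 48709 identifiers, 48349 matched a symbol in GENCODE vM21 of the same build, and 16525 passed the filter (filterByExpr, minimum count 10).

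Groups were compared with edgeR (version 4.0.16, R 4.3.3), robust quasi-likelihood F test, TMM, no block, Benjamini-Hochberg over all genes tested, threshold 0.05. Ratios were compared by exact two-sided permutation over 70 arrangements. On simulated counts (10 draws, 200 genes changed 2-fold) the test recovered 83.6% of changed genes with 7.45% false calls. These counts were drawn with edgeR's own dispersions, and far fewer genes were changed in them than were called in the data. Alternatives used DESeq2 (1.42.0), limma-voom (limma 3.58.1), other scalings and filters, blocks and left-out replicates. All 27 members were named, with up to 3 called genes per direction from each further list. Members and lists were chosen with earlier results of these data known. Levels per kb divide CPM by the exon union. The detection floor was set at 3 counts per library. No pair of replicates agreed within sampling noise (lowest chi-square per degree of freedom 9.45). Some genes of the GABA system are not reported here.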

Additional observations from a re-analysis of the deposited data

Results flagged for a closer look

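One value stood apart from its group. Slc6a11 in dcKO_hGFAP-Cre replicate 3 was at 148.0 CPM, and its gap to the nearest mutant (94.8 CPM) was 0.901 of the range of the 4 mutants. In the same library the astrocyte and radial glia markers summed to 3238 CPM, against 1341 to 1696 CPM in the other mutants. Without this library the log2 fold change of Slc6a11 was -1.60. Over the 52 groups checked, 2.6 such values are given by chance at 1 in 20, and 1 was found.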

How the results depend on the processing

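Gad1, Slc6a11, Gabrg1, Gabbr1 and Gabbr2 kept their direction and their call in all 18 alternatives in which they were refitted. Against 7 members lower and 10 higher, the counts were 8 and 10 with DESeq2 and 5 and 12 with library totals. Over all genes DESeq2 called 3430 lower and 3139 higher, against 3128 and 3074 in the main fit. With any 1 replicate left out, 6 to 7 members were lower and 7 to 10 higher. Over all genes these last fits called 2375 to 3273 lower and 2199 to 3308 higher. Library totals moved the median of all genes by 0.12 (log2) and the calls over all genes from 3128 lower and 3074 higher to 2102 and 4584. At an adjusted p under 0.01, 4 members were lower and 7 higher, against 1938 and 1611 of all genes. Without dcKO_hGFAP-Cre replicates 1 and 2 together, chosen after seeing the data, 3 members were lower and 6 higher (1581 and 1388 of all genes). With replicate 2 as the only mutant, also chosen after seeing the data and assuming that it varies like the controls, 6 members were lower and 2 higher, and 1849 of all genes were higher. A single mutant gives no spread of its own, so no share of genes lower or higher is drawn from these counts. The sign of uncalled changes turned for Slc6a13 (-0.045 with limma-voom, -0.18 with mutant replicate 2 alone), Slc12a5 (-0.0055 with replicate 2 alone), Gphn (0.012 with library totals) and Gabrd (-0.0038 with DESeq2, -0.015 with limma-voom, -0.0197 with the replicate block, -0.0195 with the lane block, -0.033 without control replicate 1, -0.21 to 0.11 over all left-out replicates with the lowest without mutant replicate 3, -0.38 with replicate 2 alone). The ratio of Gad1 to Gad2 was -0.33 within lane 6, and that of Gabbr1 to Gabbr2 0.30 within lane 7; the cause was not tested.

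Same-numbered deviations correlated at 0.171, -0.0679, 0.213 and -0.0238, and differently numbered ones at -0.314 to 0.255. With 4 samples per group these values cannot tell whether replicate numbers pair the samples. With the replicate block 7 members were lower and 8 higher (2982 and 2932 of all genes), Gabra2 and Gabra3 losing the call, and the 3 ratio differences were 0.52, 0.10 and 0.50, for which 4 pairs allow no exact p under 0.125. With 1 replicate left out, the exact p of a ratio cannot go below 0.0571. Over these, the difference was 0.40 to 0.60 for Slc12a5 to Slc12a2, 0.02 to 0.18 for Gad1 to Gad2 and 0.46 to 0.57 for Gabbr1 to Gabbr2.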
